A study of Mus musculus with 10 samples.

Results

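Chromatin loops were compared between macrophages that had been exposed to IL-4 and then washed free of it, M2p[pIL-4], and macrophages that had received no cytokine, M0[CTR]. These groups hold 4 of the 10 samples of a Hi-C series, 2 per group, and were taken by their group labels. The other 6 samples belong to M2[IL-4] cells, harvested at the end of the IL-4 exposure, to IFNG cells, and to pIL-4 + IFNG cells, which were washed and rested before they received IFNG. Hi-C joins DNA segments that lie near each other in the nucleus and counts the joined pairs by sequencing. All cells were bone marrow-derived macrophages from wild type female C57BL/6 mice aged 2 to 3 months, grown in M-CSF at 20 ng/ml for 6 days. For M2p[pIL-4], IL-4 (20 ng/ml) was present for 24 h and was then washed off, after which the cells rested for 24 h. IFNG was given at 20 ng/ml for 3 h. The labels do not say at what time M0[CTR] cells were harvested, so the exposure and the added time in culture cannot be told apart.

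A chromatin loop is a contact between distant segments of a chromosome, the loop anchors, that is more frequent than that of their surroundings. Many loops form where the cohesin complex extrudes DNA until it meets CTCF, a DNA-binding protein that halts cohesin when its motifs face each other. Others bring enhancers near promoters. IL-4 acts through its receptor and Janus kinases on STAT6, a transcription factor that drives alternative activation of macrophages, including genes of tissue repair, lipid handling and, in mouse, coagulation factors.

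Each group was represented by 1 loop list, in which its replicates were pooled, so replicate spread is unknown for every difference below and no test was made. Intervals are 95% and cover counting error only, and a difference between lists compares these libraries rather than the conditions. Values given as with IL-4 present, after washout and with IFNG alone are those of the M2[IL-4], M2p[pIL-4] and IFNG lists. A loop more frequent per cell and a loop present in more of the cells cannot be told apart in such pooled material. On the autosomes and X, M2p[pIL-4] held 67727 loops with 2786962 contacts and M0[CTR] 53423 loops with 2174840 contacts. The M2p[pIL-4] list was therefore 26.8% longer, with 28.1% more contacts. Each loop was a pair of 10 kb bins, with a median of 32 contacts in both lists, a range of 5 to 299 in M2p[pIL-4] and 5 to 284 in M0[CTR], and a span of 10 to 1490 kb. Since only called loops are listed, these totals do not measure sequencing depth.

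The following sites mark the anchors of loops described below. Each is a match within a 10 kb anchor bin to a 14-base CTCF consensus, with 10 bases of the GRCm38 reference on either side. Capitals mark the motif, and each sequence is printed along the strand on which the motif lies. The first pair comes from the anchor blocks that flank F7 and F10, and the second from a Rin2 bin pair that only M2p[pIL-4] listed. The third comes from the Impdh1 to Hilpda loop that M2p[pIL-4] lacked. The last site comes from a long loop on chromosome 10 listed after washout.
chr8:12988881-12988914, plus strand, left of F7: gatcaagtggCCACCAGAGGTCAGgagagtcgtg
chr8:13093299-13093332, minus strand, right of F10: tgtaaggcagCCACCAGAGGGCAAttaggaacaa
chr2:145810836-145810869, plus strand, Rin2: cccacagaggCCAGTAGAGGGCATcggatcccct
chr2:145882583-145882616, minus strand, Rin2: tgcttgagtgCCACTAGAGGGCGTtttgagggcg
chr6:29205326-29205359, plus strand, Impdh1: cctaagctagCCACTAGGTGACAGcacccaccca
chr6:29279197-29279230, minus strand, Hilpda: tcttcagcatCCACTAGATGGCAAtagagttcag
chr10:96214036-96214069, plus strand, outside genes: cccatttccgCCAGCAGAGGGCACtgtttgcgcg
Within each pair the plus-strand motif lies at the lower coordinate and the minus-strand motif at the higher, so that they face each other. The right Rin2 bin also holds a plus-strand match that is not shown. The pair at F7 and F10 lies in other bins than the CTCF-bound sites that the study reports on either side of F10. The chromosome 10 site matched the consensus exactly and the other sites carried 1 mismatch. Exact matches lay in 2.40% of all 10 kb bins and matches with at most 1 mismatch in 20.8%, so a match in a given bin is common and is a description only.

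Within 25 kb, most loops of washed-out and of untreated cells had a match in the other list. With matching in the same bins, 57.8% of M2p[pIL-4] loops and 46.5% of M0[CTR] loops had none. At 25 kb, the share without a match was highest among weak, very long and adjacent-bin loops. A loop was called matched when both anchors lay within 25 kb of those of a loop in the other list, and otherwise gained (listed in M2p[pIL-4]) or lost (listed in M0[CTR]). Gained loops numbered 9563 of 67727, or 14.1% (13.9 to 14.4), and lost loops 4745 of 53423, or 8.88% (8.64 to 9.13). With the strongest M2p[pIL-4] loops kept to the length of the M0[CTR] list, the numbers became 6255 (11.7%) and 6361 (11.9%). Lists of equal length leave similar numbers unmatched on either side by construction, so these numbers do not show where the surplus came from. Gained loops held a median of 23 contacts over 230 kb and lost loops 19 contacts over 330 kb, whereas matched M2p[pIL-4] loops held 33 contacts over 160 kb.

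The gained share depended on span and on strength. Strength is a loop's count over the median of its list for loops of equal span up to 500 kb, and of a wider span class above that. The strength of a longer loop thus also depends on the width of its class. Among loops between adjacent bins 20.6% (19.2 to 22.1) were gained, among those of 60 to 100 kb 9.15% (8.63 to 9.69), and among those of the longest class, up to 1490 kb, 50.8% (47.8 to 53.8). The corresponding lost shares were 13.6%, 3.98% and 45.2%. By strength, the gained share went from 25.2% in the weakest of 10 equal classes to 1.88% in the strongest, and the lost share from 16.8% to 0.599%. Both directions thus followed the same course, as the plot of unmatched loops by span and strength shows.

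**Figure D1:**
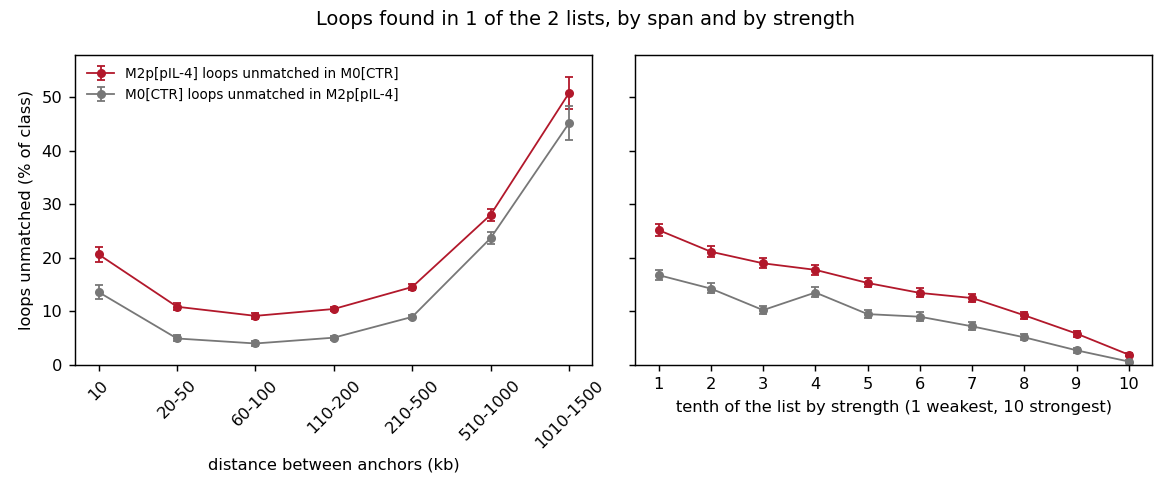
Share of loops without a match within 25 kb in the other list (vertical axis, % of each class) by distance between anchors in kb (left) and by strength in 10 equal classes (right). Points are 1 list each, with 95% Wilson intervals; the M2p[pIL-4] curve lies above the M0[CTR] curve throughout, from 25.2% against 16.8% in the weakest class to 1.88% against 0.599% in the strongest.

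Promoters were less frequent among unmatched loops. A bin with a transcription start site (TSS) of a protein-coding gene was at an anchor of 24.1% of gained loops, 24.3% of lost loops (23.1 to 25.6) and 30.0% of matched M2p[pIL-4] loops (29.6 to 30.4). Chromosome X held few loops, of which 76 of 195 were gained, or 39.0% (32.4 to 46.0), and 44 of 150 lost, or 29.3% (22.6 to 37.1). Among the autosomes the gained share ran from 9.58% on chromosome 11 to 20.1% on chromosome 13. X loops were also weaker for their span than the lists as a whole, with a median strength of 0.846 in both lists, and the part of that in their unmatched share was not tested.

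The 5 strongest gained loops joined bins within or near Rin2, Tes and Cav1, St3gal1 and Kcnj4, and a pair of bins on chromosome 10 that overlap no protein-coding gene. Rin2 encodes a guanine nucleotide exchange factor for Rab5 that acts in endocytosis. Its loop, from 145810001 to 145820000 and from 145880001 to 145890000 on chromosome 2, held 102 contacts in M2p[pIL-4], and no other group listed that bin pair. Here and below, single loops were looked up in other lists at the same bin pair, so a loop in nearby bins would be missed. Only for M0[CTR] was a loop within 25 kb also excluded, by the definition of gained. The loop between Tes, which encodes a focal adhesion protein, and Cav1, which encodes the main coat protein of caveolae, held 57 contacts after washout and 38 in pIL-4 + IFNG, and the other 3 lists did not hold it. On chromosome 10, bins 96210001 to 96220000 and 97160001 to 97170000 held 22 contacts after washout and 17 in pIL-4 + IFNG, again without a listing in M0[CTR], M2[IL-4] or IFNG. By contrast, the loop to Kcnj4, a potassium channel gene, was missing from M0[CTR] alone, with 46 contacts in M2p[pIL-4], 33 in M2[IL-4], 33 with IFNG alone and 38 in pIL-4 + IFNG. The St3gal1 loop held 35 contacts, and its bin pair was listed in M2p[pIL-4] only.

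Of the 5 strongest lost loops, 4 had bin pairs listed in M0[CTR] alone, with 17 to 33 contacts each. These lay between Lmntd1 and Itpr2 on chromosome 6, at Mgat5b on chromosome 11, and at 2 places on chromosome 9, between Thsd4 and Lrrc49 and outside genes. The fifth joined a bin in Impdh1, from 29200001 to 29210000 on chromosome 6, with the bin from 29270001 to 29280000 that holds the TSSs of Hilpda and Fam71f2. Impdh1 encodes an enzyme of guanine nucleotide synthesis, and Hilpda a lipid droplet protein that inhibits triglyceride breakdown. This loop had 86 contacts in M0[CTR], 63 with IL-4 present, 67 with IFNG alone and 67 in pIL-4 + IFNG, and M2p[pIL-4] stood alone in not listing it. A loop that is not listed was not called and may still have had contacts.

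Whether the gained loops recurred after washout was examined in libraries that share no sample with this comparison, the pIL-4 + IFNG and IFNG lists. The pIL-4 + IFNG list was itself 21.8% longer than the IFNG list, so its strongest loops were kept to the same length. Of the 9563 gained loops, 15.1% (14.4 to 15.8) were then in pIL-4 + IFNG and not in IFNG, and 13.2% (12.5 to 13.8) in IFNG and not in pIL-4 + IFNG. Of the lost loops, 13.8% (12.9 to 14.8) and 14.4% (13.4 to 15.4) were, in the same order, and of the matched loops 3.83% and 3.56%. Gained loops thus leaned toward the washed-out list by a small margin, and lost loops did not lean beyond their counting intervals. With whole lists, 46.4% of gained loops were in pIL-4 + IFNG and 36.4% in IFNG, against 95.6% and 93.2% of matched loops. Lost loops leaned the same way there, with 38.9% and 32.9%, and the part of the longer list in this was not tested.

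Contact counts were then compared at the bin pairs present in both lists. This leaves out bin pairs that were called in 1 list only, and scaling by summed contacts centres the ratios near 0, so the values describe the spread among pairs called in both lists and not whether contacts differed in all. Over 28583 such bin pairs, scaled by their summed contacts, the median log2 ratio of M2p[pIL-4] to M0[CTR] was -0.0047 with an SD of 0.26 across bin pairs. A ratio of at least 1.5-fold was found at 518 bin pairs in the higher direction (1.81%) and at 438 in the lower direction (1.53%). The pIL-4 + IFNG over IFNG ratio gave 527 (1.82%) and 487 (1.68%) of 28975. The differences between scaled counts, each over its sampling error, had a variance 0.626 times that of sampling alone. These pairs thus varied less than unselected counts would.

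The higher and lower bin pairs were on the same side of 0 in the other pair of libraries about as often as on the opposite side. Across 16561 bin pairs present in all 4 lists, Pearson's r between the ratios was 0.025 and Spearman's correlation 0.018, a description of points that share libraries and chromosomes. Of 405 higher bin pairs, 220 were above 0 in pIL-4 + IFNG over IFNG, and of 312 lower bin pairs, 155 were below 0. Those named next were picked for their difference after the values had been seen. At Gtf2f2, which encodes a subunit of the general transcription factor TFIIF, counts were 29 in M0[CTR], 43 with IL-4 present, 65 after washout, 34 with IFNG alone and 46 in pIL-4 + IFNG, a log2 ratio of 1.12 (0.47 to 1.81) after washout. A pair at Srgap2, a regulator of Rac1 and of membrane protrusion, held 52 contacts in M0[CTR], 33 with IL-4 present and 24 after washout, a log2 ratio of -1.16 (-1.92 to -0.43). Its counts in IFNG and pIL-4 + IFNG, 39 and 38, lay between these. A pair joining Vezf1, a zinc finger transcription factor gene, to Cuedc1 had 69 contacts in M0[CTR] and 38 after washout, with 65 with IFNG alone and 40 in pIL-4 + IFNG.

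Loop anchors were next counted around genes. Every anchor in a bin that overlaps 100 kb on either side of a TSS was counted, counts were scaled to the length of the M0[CTR] list, and ratios are on the log2(scaled anchors + 1) scale, which understates differences at low counts. Of 21728 protein-coding genes, 10645 had at least 10 scaled anchors in the higher of both lists. Their median log2 ratio was -0.033, with quartiles of -0.23 and 0.20. At 220 genes in 101 loci the count was at least 2-fold higher in M2p[pIL-4] (2.07% of those compared), and at 90 genes in 46 loci at least 2-fold lower (0.845%). Thus 71.0% of the genes past 2-fold were higher, a split that turned at equal list lengths, to 291 higher and 315 lower, and became 95.2% without scaling and 41.0% after touching bin pairs were merged. Adjacent bin pairs are not independent of each other, so the binomial intervals given with these ratios, which use the anchors without the added 1, are too narrow. The genes named also depend on the window: of the 220 higher genes, 61 were also called with 50 kb on either side and 12 with 25 kb.

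The 12 genes with the highest ratios, 1 per locus, are named by rank and not by test. At Patl2, which encodes an RNA-binding protein of oocytes, the lists held 0 anchors in M0[CTR], 10 with IL-4 present, 17 after washout, 11 with IFNG alone and 16 in pIL-4 + IFNG. At Ackr2, an atypical receptor that clears inflammatory chemokines, they held 0, 16, 14, 14 and 17 anchors, in the same order. M0[CTR] listed no loop near either gene, nor near Klk10, a kallikrein-related peptidase (14 anchors in M2p[pIL-4]), or Degs2, an enzyme of sphingolipid synthesis (13 anchors), so no fold is given for these 4. The other lists held 6 to 17 anchors at these genes, also where the cells had never met IL-4. Of the 12 genes, M0[CTR] was the lowest of all 5 lists at 10 and M2p[pIL-4] the highest at 8, a position that their choice favours.

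Below these came Zfp438, Asap1, Herc1, Riok3, Cul4a, Cramp1l, Gm36864 and Hipk3. Asap1, a GTPase-activating protein for Arf, had 1 anchor in M0[CTR] and 14 after washout, a log2 ratio of 2.59 (0.75 to 8.87), with 12 in M2[IL-4], 6 with IFNG alone and 14 in pIL-4 + IFNG. Herc1, a large ubiquitin ligase, had 2 anchors in M0[CTR], 13 with IL-4 present, 17 after washout, 3 with IFNG alone and 14 in pIL-4 + IFNG, a log2 ratio of 2.26 (0.67 to 5.90). Its anchors were many in each list of cells that had met IL-4 and few in both others. Hipk3, a nuclear kinase, had 2 anchors in M0[CTR] and 14 after washout, but 3 with IFNG alone and 2 in pIL-4 + IFNG. Zfp438 had 1 anchor in M0[CTR] and 16 after washout, with 3 in both IFNG and pIL-4 + IFNG, so neither gene showed the difference there.

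The lowest ratio was at Kansl2, a subunit of a histone acetyltransferase complex, with 17 anchors in M0[CTR], 8 with IL-4 present, 2 after washout, 8 with IFNG alone and 15 in pIL-4 + IFNG, a log2 ratio of -2.80 (-6.59 to -1.35). Ddx19a, an RNA helicase of mRNA export, had 13, 3, 2, 8 and 6 anchors. Dpy30, a subunit of histone methyltransferase complexes, had 11, 3, 2, 5 and 3, and Cd53, a tetraspanin of leukocytes, 14, 7, 4, 8 and 9. The other 8 were Rhoj, Gm11437, Lonrf2, Taf13, Gm11042, Afg3l1, Ankrd10 and Lifr, with log2 ratios from -1.85 to -1.40. M0[CTR] was the highest list at 10 of the 12 and M2p[pIL-4] the lowest at 10.

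**Figure D2:**
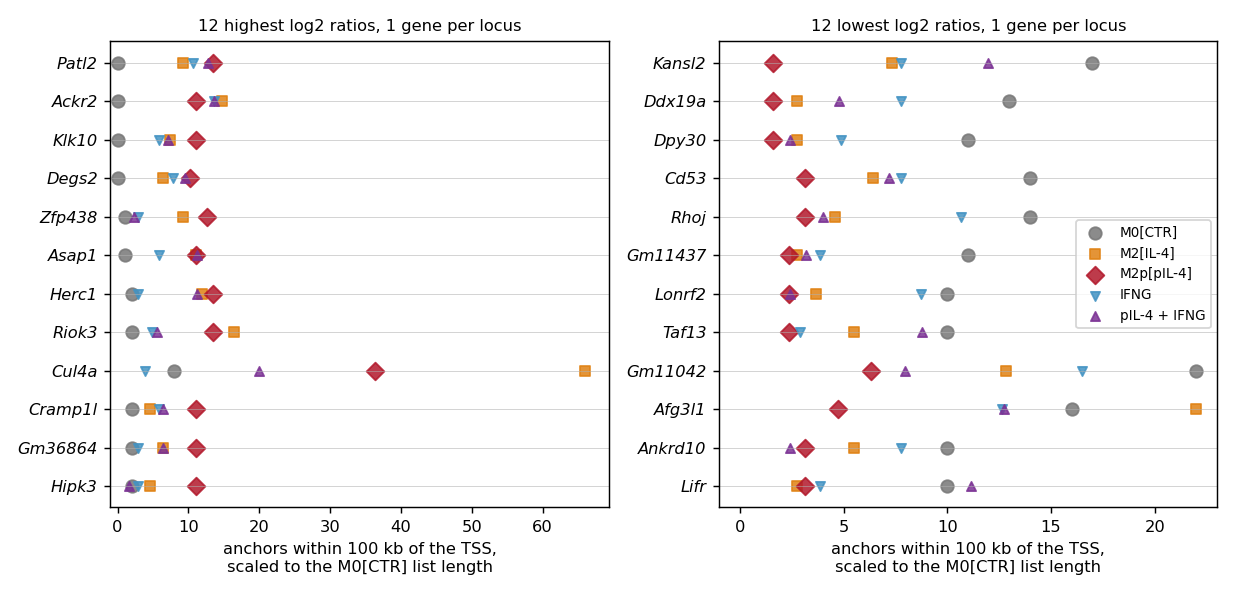
Loop anchors within 100 kb of the TSS of the 12 genes with the highest (left) and the 12 with the lowest (right) log2 ratio, in each of the 5 lists, scaled to the length of the M0[CTR] list (horizontal axis, number of anchors). Each symbol is 1 list without replicates; at Kansl2 M2p[pIL-4] (2 anchors before scaling) is apart from M0[CTR] (17), while IFNG (8) and pIL-4 + IFNG (15) lie between them.

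The higher genes were set against the IFNG libraries, which share no sample with this comparison. Of 10168 genes with enough anchors in both contrasts, 1.67% were at least 2-fold higher in pIL-4 + IFNG over IFNG and 0.413% at least 2-fold lower. Of the 159 of these genes that were higher in M2p[pIL-4], in 74 loci, 24 genes in 11 loci (15.1%) were also higher in pIL-4 + IFNG. Another 5 in 2 loci (3.14%) were lower. Of the 57 lower genes, in 31 loci, 2 in 2 loci (3.51%) were also lower, and 3 in 2 loci (5.26%) were higher. Genes past 2-fold in the first contrast thus exceeded the background of the second in both directions. The smaller shares rest on few loci, and genes of like anchor count were not compared. Neighbouring genes share loops: 7 of the 24 lie around F10, and without that locus the share was 17 of 152 genes, or 11.2%. With touching bin pairs merged, 3 genes were higher in both contrasts, or 4.29% of the higher genes against a background of 1.68%. The median ratio of the 159 higher genes in pIL-4 + IFNG over IFNG was 0.12, with 62.9% above 0 against 50.1% of all genes. For the 57 lower genes that median was 0.083, and 43.9% were below 0 against 49.9% of all. Across all 10168 genes Pearson's r and Spearman's correlation were both 0.17, a description of genes whose windows overlap.

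**Figure D3:**
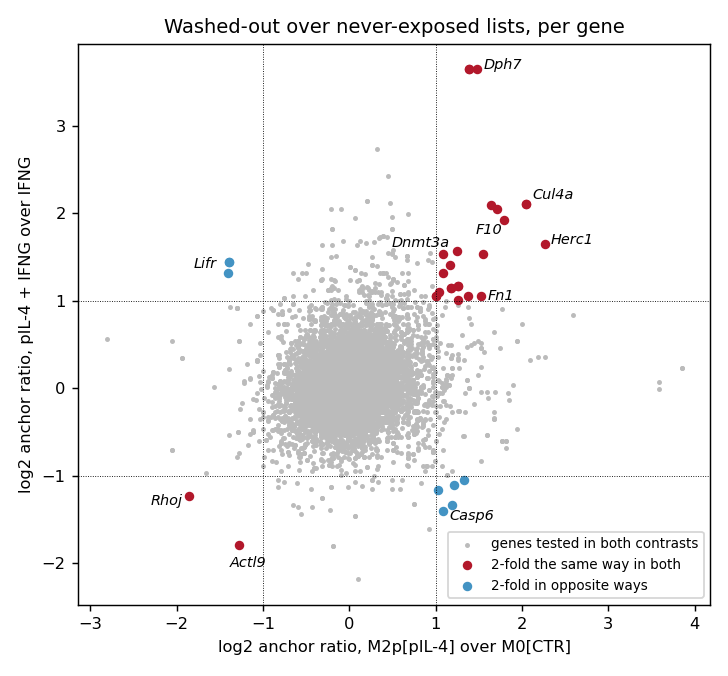
Log2 anchor ratio of M2p[pIL-4] over M0[CTR] (horizontal axis) and of pIL-4 + IFNG over IFNG (vertical axis) for the 10168 genes with enough anchors in both contrasts. Each point is a gene, dotted lines mark 2-fold, red points are 2-fold the same way in both contrasts (24 higher, 2 lower) and blue points 2-fold in opposite ways (5 and 3).

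The largest group of recurring genes surrounded F7, F10 and Proz on chromosome 8. F7 (13026034 to 13035809) and F10 (13037308 to 13056676) encode the vitamin K-dependent coagulation factors VII and X, and Proz (13060914 to 13076026) encodes protein Z, a cofactor in the inhibition of activated factor X. The F10 window held 13 anchors in M0[CTR], 87 with IL-4 present, 60 after washout, 6 with IFNG alone and 31 in pIL-4 + IFNG. Its log2 ratio was 1.79 (0.98 to 2.85) for M2p[pIL-4] over M0[CTR] and 1.92 for pIL-4 + IFNG over IFNG. F7 had 13 anchors in M0[CTR] and 54 after washout, Proz 14 and 61, with log2 ratios of 1.64 and 1.71. Each list of cells that had met IL-4 held more anchors here than both lists of cells that had not. Cul4a, the scaffold of a ubiquitin ligase, and Pcid2, both to the right of F10, had 8 and 46 anchors, a log2 ratio of 2.05 (1.08 to 3.48), with 4 with IFNG alone and 25 in pIL-4 + IFNG. Lamp1, a lysosomal membrane protein gene, had 12 anchors in M0[CTR] and 47 after washout, and Grtp1 12 and 38.

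The anchors at this locus fell into flanking blocks rather than on the factor genes themselves. Blocks were drawn after the bins had been seen. The left block, 12970001 to 13020000, lies within Mcf2l, a guanine nucleotide exchange factor for small GTPases, and the right block, 13070001 to 13140000, spans Pcid2 and much of Cul4a. The left block held 7 anchors in M0[CTR], 39 with IL-4 present, 31 after washout, 2 with IFNG alone and 17 in pIL-4 + IFNG. The right block held 4, 34, 27, 4 and 14 anchors, in the same order. Between them, the block from 13020001 to 13070000 with the TSSs of F7, F10 and Proz held 10 anchors with IL-4 present, 1 after washout and 0 in the other 3 lists. The M2p[pIL-4] list thus had the flanking anchors but held almost none over the factor genes, where M2[IL-4] had some.

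**Figure D4:**
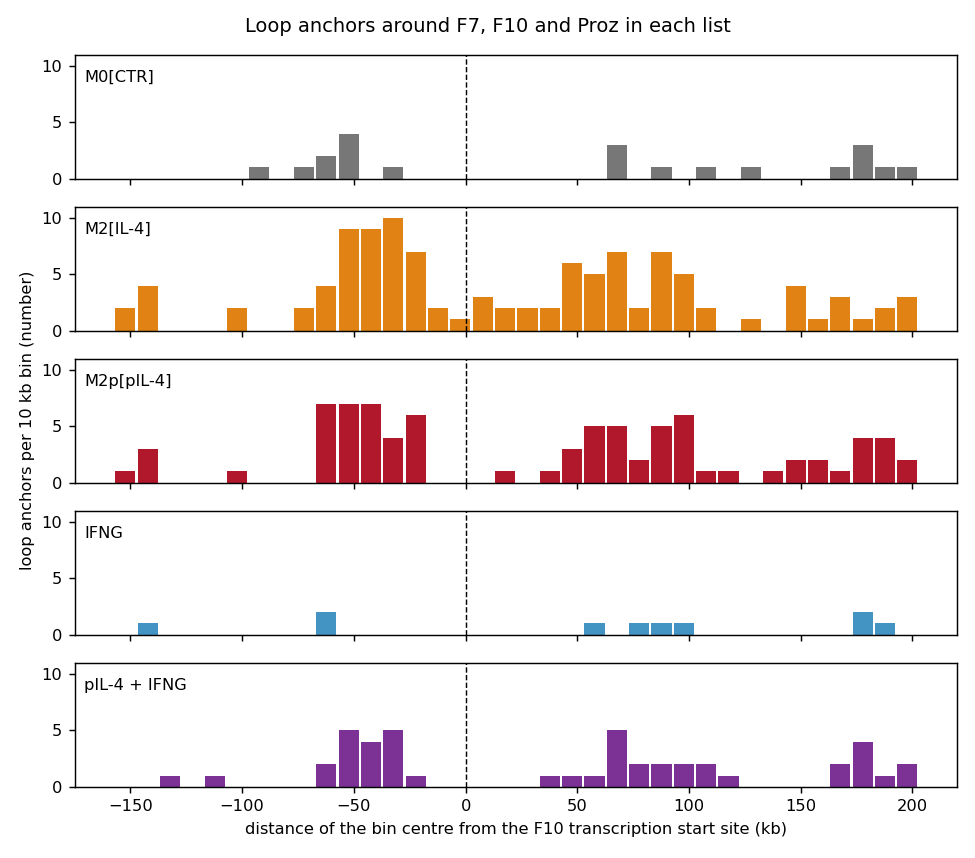
Loop anchors per 10 kb bin (vertical axis, number) by distance from the F10 TSS (horizontal axis, kb, dashed line at 0) in each of the 5 lists, unscaled. Bars to the left of F7 and to the right of F10 are tall in M2[IL-4], M2p[pIL-4] and pIL-4 + IFNG and low in M0[CTR] and IFNG (31, 17, 7 and 2 anchors in the left block for M2p[pIL-4], pIL-4 + IFNG, M0[CTR] and IFNG).

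Loops joining the left block to the right block accounted for most of this. Of 35 possible bin pairs, M0[CTR] listed 4, M2[IL-4] 26, M2p[pIL-4] 24, IFNG 2 and pIL-4 + IFNG 13. Their summed contacts were 157, 1095, 1006, 70 and 502, in the same order. The greatest strength in M2p[pIL-4], 1.51, was at 13000001 to 13010000 with 13120001 to 13130000. That pair held 56 contacts and was not listed in M0[CTR]. By count, the highest value was 58 contacts. It was held by 13010001 to 13020000 with 13080001 to 13090000, not listed in M0[CTR], and by a pair that was. The latter joined 13000001 to 13010000 with 13100001 to 13110000, the bin of the Pcid2 and Cul4a TSSs. It held 45 contacts (32.8 to 60.2) in M0[CTR]. All 4 M0[CTR] bin pairs were also in M2p[pIL-4], and at the other 3 the counts were 32 and 47, 43 and 45, and 37 and 32 in M0[CTR] and M2p[pIL-4]. So the number of listed bin pairs differed widely. Where both lists had a bin pair, the counting intervals of the counts overlapped, although at the pair with 32 and 47 contacts each count lay outside the interval of the other. Because the M0[CTR] pairs lay nearby, 2 of the 24 M2p[pIL-4] bin pairs were gained under the 25 kb rule.

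All 24 bin pairs touched each other and formed 1 cluster, as did the 26 of M2[IL-4] and the 13 of pIL-4 + IFNG, while those of M0[CTR] formed 3 clusters. With touching bin pairs counted once throughout, F10 had 9 anchors in M0[CTR] and 10 after washout, a log2 ratio of -0.09, F7 9 and 9 (-0.23) and Proz 10 and 10 (-0.23). The corresponding F10 counts were 6 and 3 in IFNG and pIL-4 + IFNG. The difference at F10 thus lay in the number of touching bin pairs listed and not in the number of separate clusters. The left block holds 5 CTCF consensus matches with 1 mismatch, all on the plus strand, and the right block 1 on each strand, including the facing site printed above at 13093299. None of these matches lies in the bins 13010001 to 13020000 and 13100001 to 13110000, where the CTCF-bound sites reported by the study fall. Binding of CTCF was not used here. All matches are in the reference and so are the same in every group.

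Outside the F10 locus, recurrence was seen at 10 further loci, named after their values had been seen. Fn1, which encodes the matrix protein fibronectin and is a marker of alternative activation, had 4 anchors in M0[CTR], 18 with IL-4 present, 17 after washout, 5 with IFNG alone and 14 in pIL-4 + IFNG. Its log2 ratios were 1.53 (0.13 to 3.78) after washout and 1.06 in pIL-4 + IFNG over IFNG. The Fn1 loops were long, with a median span of 480 kb and a median of 15 contacts, and 9 of its 17 loops were gained. The strongest of these joined a bin in Fn1, from 71620001 to 71630000 on chromosome 1, with one outside genes, from 72080001 to 72090000, with 17 contacts, and no other list held that bin pair. With touching bin pairs merged, Fn1 had 3 anchors in M0[CTR] and 14 after washout (a log2 ratio of 1.67), but its ratio in pIL-4 + IFNG over IFNG was 0.69. With 50 kb on either side the ratios of the contrasts were 0.72 and 0.98, and with a pseudocount of 5 they were 1.03 and 0.72. Recurrence at 2-fold was thus not kept there, but it was at equal list lengths (1.38 and 1.12) and without scaling (1.85 and 1.32).

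Med15, a subunit of the Mediator complex, and its neighbour Klhl22, an adaptor of a ubiquitin ligase, had 6 anchors in M0[CTR], 18 with IL-4 present, 20 after washout, 6 with IFNG alone and 18 in pIL-4 + IFNG. Dph7, an enzyme of diphthamide synthesis, had 5, 10, 20, 0 and 14. At equal list lengths Dph7 had 5 anchors in M0[CTR] and 8 after washout, a log2 ratio of 0.58 that was no longer past 2-fold, as was also so for its neighbours Mrpl41 and Pnpla7 (0.51 each) and Nsmf (0.81). Dnmt3a, a de novo DNA methyltransferase, had 11 in M0[CTR], 22 with IL-4 present, 31 after washout, 11 with IFNG alone and 41 in pIL-4 + IFNG. At each of these, both washed-out lists lay above both lists of cells never given IL-4. The choice of genes higher in both contrasts favours this order, here and below. The same order was seen at Nop53, a ribosome assembly factor (11 anchors in M0[CTR] and 35 after washout), and at Dennd4c, a Rab exchange factor (10 and 35, with a log2 ratio in pIL-4 + IFNG over IFNG of 0.58 at equal list lengths). It was also seen at Sult6b2, a sulfotransferase gene (6 and 17, but with a log2 ratio of -0.22 at equal list lengths), at Sox8, a transcription factor gene, with its neighbour Lmf1 (5 and 14), and at Snx1, a sorting nexin gene, with its neighbour Ciao2a (5 and 16). At Herc1 and its neighbour Fbxl22 (4 and 13, with a log2 ratio of 0.85 at equal list lengths), the pIL-4 + IFNG list held 14 and 15 anchors and the IFNG list 3 and 4.

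Bin pairs that both lists held were few near these genes, with none near Dph7, Mrpl41, Pnpla7, Herc1 and Fbxl22, and they leave out every loop that was called in 1 list only. Near Med15 they summed to 203 in M0[CTR] and 201 after washout, near Dnmt3a to 228 in both, and near Nop53 to 429 and 445. Genes recurring in the lower direction were Rhoj, a small GTPase of endothelium, with 14 anchors in M0[CTR], 4 in M2p[pIL-4], 11 with IFNG alone and 5 in pIL-4 + IFNG, and Actl9, an actin-like gene, with 11, 5, 11 and 3. The Rhoj loops were very long, with a median span of 1045 kb and a median of 11 contacts in M2p[pIL-4], a class in which unmatched loops were frequent in both directions.

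Genes of the IL-4 pathway and its targets were then taken as lists, each described by its counts beside all genes, of which 2.07% were 2-fold higher and 0.845% 2-fold lower with a median of -0.033. List members that are neither past 2-fold nor among the 16 genes the study names were picked after their values were seen, as extremes of their list or for their known role. None of the 12 IL-4 receptor and signalling genes with enough anchors passed 2-fold, and their median was 0.044. The receptor chain Il4ra had 60 anchors in M0[CTR] and 83 after washout (0.12), and the transcription factor Stat6 74 and 91 (-0.04). The highest were Jak1, the kinase bound to the receptor, with 15 and 34 (0.80), and Irs2, an adaptor of the receptor, with 26 and 56 (0.74). None of the 14 IL-4 response transcription factors passed 2-fold either, with a median of 0.16 and 11 above 0. The lowest ratio was at Maf (-0.36), and Pparg, a nuclear receptor of lipid metabolism, had 25 and 42 anchors (0.39).

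Among 16 alternative activation effectors, Fn1 alone was past 2-fold, and the median was 0.027. The lowest was Odc1, which makes polyamines, with 17 anchors in M0[CTR] and 14 after washout (-0.58). Pdcd1lg2, a ligand of the inhibitory receptor PD-1, had 43 and 76 (0.47), and Mrc1, the mannose receptor, 37 and 39 (-0.26). Of 16 coagulation, fibrinolysis and complement genes, 3 were 2-fold higher, namely F7, F10 and Proz, which share 1 locus and most of their loops. The other 13 ran from -0.23 to 0.33, among them the tissue factor gene F3 with 27 and 29 anchors (-0.23) and the thrombomodulin gene Thbd with 29 and 43 (0.22).

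Inflammatory and endotoxin-induced genes gave no gene past 2-fold among 21, a median of -0.15 and 15 below 0. The extremes were Ptgs2, which makes prostaglandins, with 16 anchors in M0[CTR] and 12 after washout (-0.70), and Tnfaip3, an inhibitor of NF-kB signalling, with 23 and 45 (0.60). None of 19 IFNG-induced genes passed 2-fold, with a median of -0.065, nor did any of 10 glucocorticoid-induced genes (-0.15), 15 genes of cholesterol and lipid handling (0.022) or 16 housekeeping genes (-0.056). Among the lipid genes, Hmgcs1, an enzyme of cholesterol synthesis, had 9 and 20 anchors (0.75) and Lpl, lipoprotein lipase, 42 and 36 (-0.55). The medians of these lists lay within 0.2 of that of all genes, and the housekeeping genes themselves ran from -0.66 to 0.55.

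**Figure D5:**
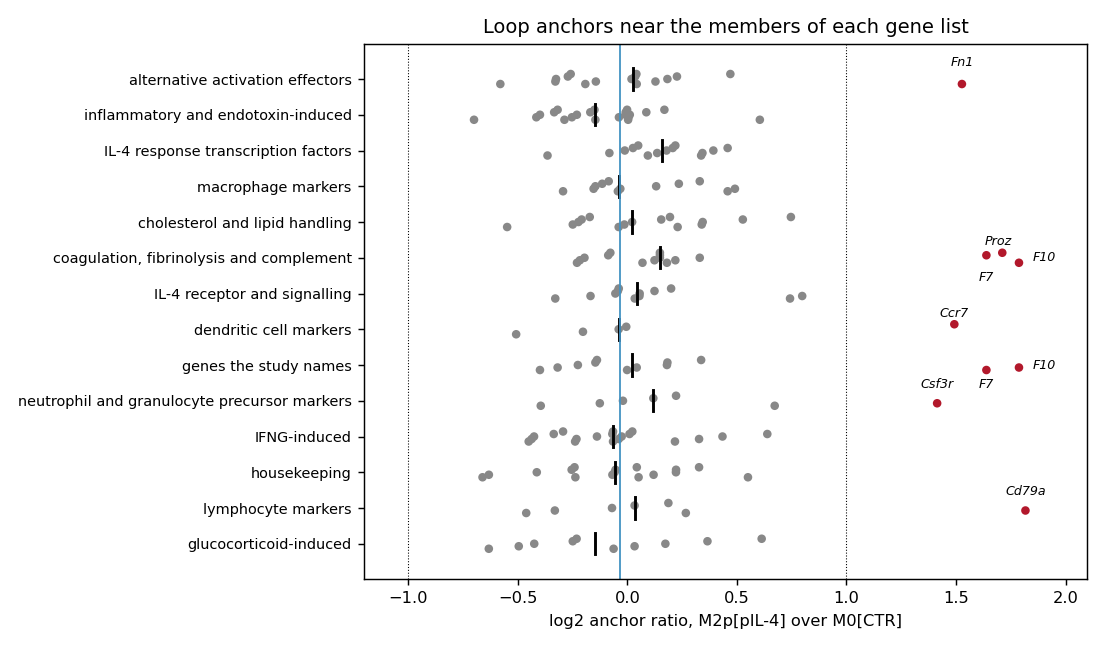
Log2 anchor ratio of M2p[pIL-4] over M0[CTR] (horizontal axis) for each gene with enough anchors in each of the 14 gene lists. Points are genes (red where at least 2-fold), black bars list medians, the blue line the median of all genes (-0.033) and dotted lines 2-fold; most medians lie near the blue line and the red points are few.

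Of the 16 genes that the study names, partly from these libraries, 12 had enough anchors and F7 and F10 were past 2-fold. Arg1, the arginase of alternative activation, had 11 anchors in M0[CTR], 30 with IL-4 present, 16 after washout, 15 with IFNG alone and 24 in pIL-4 + IFNG, so that its count after washout was close to that of untreated cells once scaled (a log2 ratio of 0.18). Klf4, a transcription factor induced through STAT6, had 66, 117, 106, 92 and 107 anchors, and its ratio of 0.34 (-0.12 to 0.81) included 22 gained loops and 5 lost loops. Itgax, the integrin CD11c, had 62 and 81 in M0[CTR] and M2p[pIL-4] (0.04), and C3, the central complement component, 66 and 95 (0.18). The inflammatory genes Ccl2 (30 and 38), Cd14 (42 and 48), Tlr2 (15 and 15) and Edn1 (18 and 17) had log2 ratios of -0.00, -0.15, -0.32 and -0.40. Ciita, the activator of MHC class II genes, had 80 and 92 (-0.14), and Gstt2 26 and 28 (-0.23).

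The remaining 4 of the study's genes had too few anchors to compare. Il6 had 1 anchor in M0[CTR] and 6 after washout, Slc7a2, an arginine transporter gene, 4 and 4, Chil3 1 and 0, and Mgst1 0 and 0. The Slc7a2 count in M2[IL-4] was 12. These genes therefore carried few listed loops within 100 kb in either group.

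Loops are not expression, so the cell type label could be checked only by the loops around marker genes. All 12 macrophage markers had enough anchors, up to 74 at Mertk in M0[CTR], with a median ratio of -0.038 and none past 2-fold. Markers of other cell types also had loops: Csf3r, the G-CSF receptor of neutrophils, 5 anchors in M0[CTR] and 19 after washout (1.41), Cd79a, a B cell receptor subunit, 6 and 30 (1.82), and Ccr7, a homing receptor of dendritic and T cells, 3 and 13 (1.49). Each was the sole member past 2-fold among the 7 neutrophil, 7 lymphocyte and 5 dendritic cell markers with enough anchors, whose list medians were 0.12, 0.033 and -0.040. The Cd79a window, on chromosome 7, had 25 anchors in M2[IL-4], 18 with IFNG alone and 14 in pIL-4 + IFNG and overlaps those of Arhgef1 and Rabac1. The strongest gained loop near Csf3r joined the bin of its TSS with that of Mrps15, with 107 contacts in M2p[pIL-4], 104 in M2[IL-4] and 98 in pIL-4 + IFNG, and was not listed in M0[CTR] or IFNG.

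CTCF consensus matches were as frequent at gained as at lost anchors. An exact match lay in 6.45% of gained anchor bins (6.08 to 6.85) and 7.38% of matched M2p[pIL-4] anchor bins (7.12 to 7.64), against 2.40% of all bins. For lost anchor bins the interval was 6.09% to 7.15% (561 of 8497 bins). Among loops with exact matches at both anchors in 1 orientation each, the motifs faced each other in 45 of 76 gained, 31 of 40 lost and 396 of 624 matched loops. With 1 mismatch allowed, these shares were 48.5%, 48.7% and 48.7%. Gained and lost anchors thus differed from genome bins in the same direction as matched anchors did, and by slightly less.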

How the data were processed

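Hi-C was done on bone marrow-derived macrophages, with 2 samples in each of 5 groups. The authors deposited 1 loop list per group, with replicates pooled, in which each row is a pair of 10 kb bins with its whole-number count of contacts. The submitters' processing notes name FastQC, Bowtie2, HiC-Pro, Juicer, HOMER and the mm10 build. The methods describe loop calling at 25 kb, whereas the lists hold 10 kb bins, and the caller and threshold behind the lists are not given in the sources used here. A list holds called loops only, so that "not listed" does not mean 0 contacts and the list totals are not the sequencing depth, for which the study's read numbers per sample were not used here. List length depends on what was called, and both washed-out lists were the longer of their pair. The part of that in the differences was not tested beyond the equal-length alternative.

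From these lists, loops were matched when both anchors lay within 2 bins, taken as 25 kb, and 1 bin pair on chrM was left out of each list. Contacts at bin pairs in both lists were scaled by their sums, with 1.5-fold as threshold. Anchors within 100 kb of the TSS of GENCODE protein-coding genes were counted, a loop with both anchors in the window counting for each. They were scaled to the M0[CTR] list length and given a pseudocount of 1. Genes needed 10 scaled anchors in the higher list and were called at 2-fold, and those within 200 kb were joined into a locus. Named were the 12 highest and 12 lowest genes, 1 per locus, called members of 14 gene lists, the 16 genes the study names, and the 5 strongest gained and lost loops. Other named items were chosen after their values were seen. The members and lists were chosen with earlier results of these data known. CTCF consensus matches were searched on both strands of the RefSeq GRCm38 reference. Intervals at 95% are Wilson for shares, exact Poisson for counts and exact binomial for ratios, and cover counting error only. No test across groups was possible with 1 list per group. Scripts ran under Python 3.11.15 with scipy 1.17.1 for intervals, pandas 2.3.3 and numpy 2.4.6 for tables and matplotlib 3.10.9 for plots, and were tested on simulated data. Alternatives were other match distances, windows, pseudocounts, scalings, minimums, equal list lengths and merged touching bin pairs. Some items are not reported here.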

Additional observations from a re-analysis of the deposited data

Results flagged for a closer look

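At the following genes, past 2-fold in both contrasts, the ratio of M2p[pIL-4] to M0[CTR] and that of pIL-4 + IFNG to IFNG pointed in opposite directions. This difference was not tested. The difference between both log2 ratios was 2.53 at Rrh, 2.49 at Casp6 and 2.20 at Pla2g12a, which lie close together. It was 2.38 at Rabac1 and 2.31 at Gm4881, also neighbours. Casp6, an effector caspase gene, had 8 anchors in M0[CTR], 14 with IL-4 present, 23 after washout, 19 with IFNG alone and 8 in pIL-4 + IFNG. In the other direction the difference was -2.73 at Lifr, the receptor of leukemia inhibitory factor, and -2.83 at Rnf225.

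Outside the autosomes and X, the mitochondrial chromosome had 1 listed bin pair per group, with 155 contacts in M2p[pIL-4] (131.6 to 181.4), 105 in M0[CTR], 167 with IL-4 present, 163 with IFNG alone and 220 in pIL-4 + IFNG.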

How the results depend on the processing

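Of 643 values recomputed under an alternative, 504 of them for single named genes, 570 kept their call or moved by less than the set limit. A gene could fall below 2-fold and still be among the 570, as Fn1 did with 50 kb on either side (1.53 to 0.72). Most loop totals given next counted as moved. With loops matched in the same bins, 39144 (57.8%) were gained and 24840 (46.5%) lost, and within 50 kb 4464 (6.59%) and 2062 (3.86%). At equal list lengths 6255 (11.7%) were gained and 11.9% of M0[CTR] loops lost. With at least 20 contacts 6338 (11.7%) were gained and 2591 (6.19%) lost, and with touching bin pairs merged 42.5% and 32.7%. With at least 50 contacts in both lists together, 288 bin pairs were 1.5-fold lower. For genes, a 25 kb window gave 94 higher, 12 of them higher in both contrasts, and 3 list memberships past 2-fold. A pseudocount of 5 gave 92 higher, 23 lower and 11 in both contrasts. Without scaling there were 862 higher, 43 lower, 121 in both contrasts and 14 list memberships. Equal list lengths gave 315 lower, no minimum gave 1259 higher, 850 lower and 194 in both contrasts, and merging gave 118, 170 and 3. Log2 ratios changed sign at Sult6b2 (-0.22) at equal lengths, and at Nsmf (-0.38), F7 (-0.23), F10 (-0.095) and Proz (-0.23) after merging, where touching bin pairs count once. The cause of the other differences was not tested. With the pIL-4 + IFNG list at the length of the IFNG list, chosen after seeing the data, it held 38.3% of gained and 32.3% of lost loops. The IFNG list itself held 36.4% of gained and 32.9% of lost loops. With 1 CTCF mismatch allowed, 33.0% of gained, 36.8% of matched and 32.9% of lost anchor bins held a match.

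No paired analysis was possible because the replicates are pooled in each list, and leaving out a replicate could not be run for the same reason. How sequencing depth bears on the gene counts was not tested.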
